A study of Mus musculus with 6 samples.

Results

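The DNA replication genes described here are 41 genes that encode origin licensing factors, the replicative helicase and its activators, the replicative polymerases, the sliding clamp and its loader, the single-strand binding complex, the enzymes that finish Okazaki fragments, the S-phase nucleotide synthesis enzymes and uracil DNA glycosylase. They were chosen by name, with earlier results of these data known. All 41 were matched by symbol in the deposited expression table, among 38924 genes. The series compared induced myogenic progenitor cells (iMPCs), which are muscle progenitors made from mouse fibroblasts by reprogramming, with the stem cells of skeletal muscle, called satellite cells. The RNA-seq data hold 6 mouse libraries in 5 groups. Quiescent satellite cells (QSC) had 2 libraries, labelled mouse 1 and mouse 3. Activated satellite cells (ASC) had 1 library, titled Pax7-plus and p1. The iMPCs were sorted by a nuclear GFP (green fluorescent protein) reporter of the Pax7 gene, with 1 library of positive and 1 of negative cells. Mouse embryonic fibroblasts (MEFs) had 1 library. The labels' protocol for expanded iMPC cultures names a medium without doxycycline that holds basic FGF at 10 ng/ml, forskolin at 5 µM, RepSox at 5 µM and a GSK3 inhibitor at 3 µM. Strain, age, the fibroblast source of the sorted iMPCs and the media of the ASC and MEF cells were not given in the sources used here.

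Replication starts at origins that were loaded, or licensed, with a ring of MCM proteins by the origin recognition complex, Cdc6 and Cdt1. In S phase the ring is turned into an active helicase by Cdc45 and the GINS complex, polymerase alpha-primase lays down primers, and polymerases delta and epsilon copy the strands while held by the PCNA clamp. Many of these genes are transcribed as cells pass from G1 into S phase under E2F transcription factors, and quiescent satellite cells rest outside the cell cycle until muscle is injured.

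The smallest library was ASC, with 20859611 counts, and the largest was QSC mouse 1, with 29279686, and the 41 genes took between 0.0639% of the counts in QSC mouse 3 and 0.596% in Pax7-positive iMPCs. Levels are in CPM, the count of a gene divided by its library's total and scaled between libraries by TMM, and are always listed in the order QSC mouse 1, QSC mouse 3, ASC, Pax7-positive iMPC, Pax7-negative iMPC and MEF. The satellite cell gene Pax7 was at 34.5, 159.7, 19.8, 37.8, 6.25 and 0 CPM, so it was present in the libraries labelled as satellite cells and iMPCs and at 0 in MEFs, and it was higher in the reporter-positive than in the reporter-negative iMPCs. The QSC libraries differed from each other: X-linked Xist was at 0.0954 CPM in mouse 1 and 530.1 in mouse 3, and Y-linked Ddx3y at 454.6 and 0.226 CPM. Summed levels of 20 mitosis genes were 310.7 CPM in mouse 1 and 29.9 in mouse 3. For endothelial markers the sums were 226.6 and 59.6 CPM, and for erythroid markers 737 and 40.97 CPM. Only QSC had more than 1 library, so every standard error (SE) and p-value against QSC rests on the spread between these 2 mice, and each lone library was taken to vary as much as they did. In bulk RNA, fewer cells of a type and less RNA per cell cannot be told apart.

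Most of the replication genes were higher outside QSC, by an amount that depended on the library compared. In Pax7-positive iMPCs, 26 of 41 genes rose and 0 fell against QSC (edgeR's quasi-likelihood test, adjusted p under 0.05), with a median log2 difference of 2.304 and medians of 1.94 and 2.85 against mouse 1 and mouse 3 alone. Of all 17116 genes tested there, 11.3% rose and 9.31% fell, and their median was -0.03. With scaling by library size alone, the split over all genes tested moved from 1931 higher and 1593 lower to 1998 and 531, and the median of all genes moved to 0.597 (0.589 in ASC, 0.86 in Pax7-negative iMPCs and 0.608 in MEFs), while 22 of the 41 genes rose and 0 fell. Without an adjustment, 32 of the 41 genes were higher and 0 lower at p under 0.05, against 18% and 16% of all genes.

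In MEFs, 11 of 41 genes rose and 0 fell, with a median log2 difference of 1.46 (1.21 and 2.15 against mouse 1 and mouse 3 alone), where 11.3% of all genes rose and 8.03% fell. In ASC, 4 rose and 0 fell, with a median of 1.16 (0.89 and 1.70), where 11.8% of all genes rose and 8.24% fell. In Pax7-negative iMPCs, 4 rose and 0 fell, with a median of 1.13 (0.70 and 1.78), where 12.1% of all genes rose and 6.57% fell. The ASC and Pax7-negative counts of called genes were thus close to or below the background share. Some processing settings changed this. Without a low-count filter 13 of 41 genes rose in ASC, against 2451 of 23555 genes. With scaling by library size alone 9 of 41 rose in Pax7-negative iMPCs, against 2141 of 17116. With only QSC and the Pax7-negative iMPCs in the fit, 2 of 41 rose, against 1778 of 16463. The medians lay above those of all genes, which were 0 in MEFs, 0 in ASC and 0.15 in Pax7-negative iMPCs. Unadjusted p-values under 0.05 were found for 24 higher genes in MEFs (18.7% of all genes), 18 in ASC (19.1%) and 17 in Pax7-negative iMPCs (20.1%). Lower genes at that level numbered 0 in MEFs (15% of all genes), 0 in ASC (14.9%) and 1, Pcna, in Pax7-negative iMPCs (13%). The 4 comparisons share the QSC libraries, and their values are given side by side without a test of their overlap.

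The level that each gene reached can also be read without a model. In Pax7-positive iMPCs, 40 of 41 genes lay above both QSC mice, and Pcna, which lay between them, was the exception. This was so for 42.7% of all genes tested. The corresponding numbers were 35 of 41 in MEFs against 43.5% of all genes, 34 of 41 in ASC against 44% and 31 of 41 in Pax7-negative iMPCs against 46.8%. Pax7-positive iMPCs held the highest level of 38 of the 41 genes, the others being Pcna in QSC mouse 1, Gins3 in ASC and Gins2 in MEFs. QSC mouse 3 held the lowest level of 32 genes. How often any gene tested was highest or lowest in a given library was not counted, so these counts have no background share. Levels below both QSC mice were found for Orc6, Pold3 and Pcna in ASC, where 39.1% of all genes were below, for these and Pola1 in Pax7-negative iMPCs (37.1%), and for these and Pold2 in MEFs (39.7%). No replication gene was below both in Pax7-positive iMPCs, where 40.6% of all genes were.

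**Figure D1:**
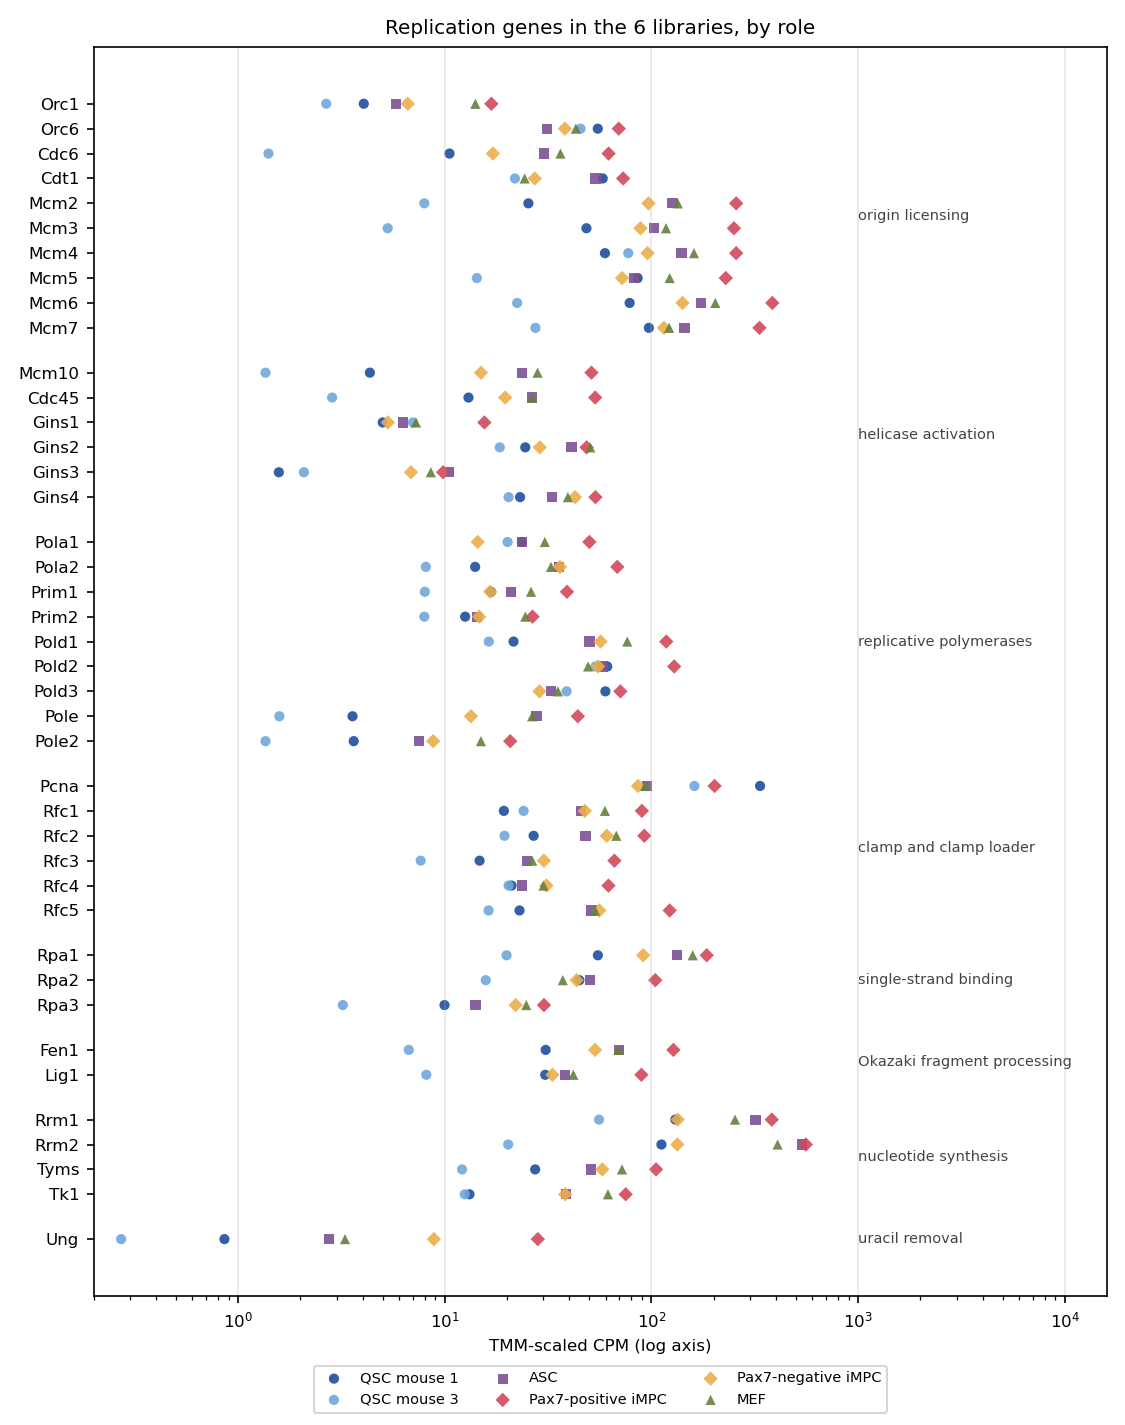
Level of each of the 41 replication genes in the 6 libraries, in TMM-scaled CPM on a log axis, grouped by role; each symbol is 1 library. The Pax7-positive iMPC symbols lie farthest right for 38 of the 41 genes, and QSC mouse 3 lies farthest left for 32. The same was not counted over all genes.

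**Figure D2:**
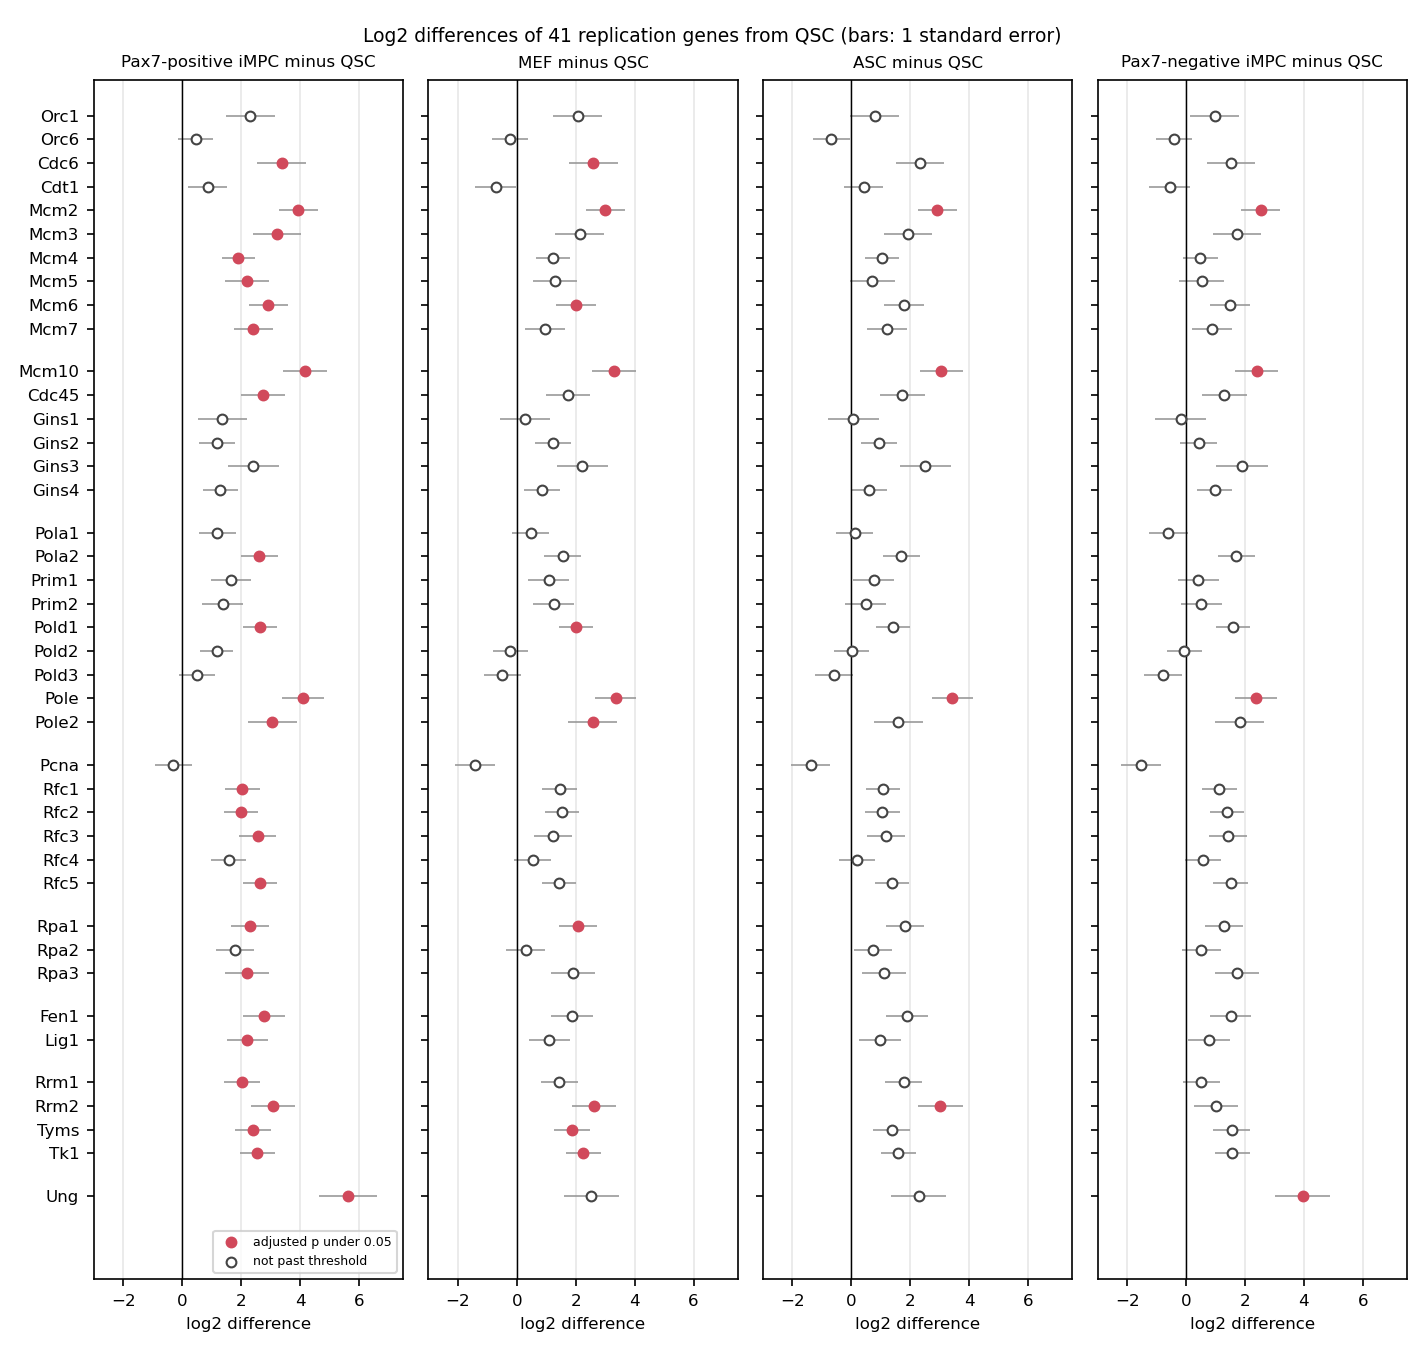
Log2 difference of each gene from the pair of QSC libraries in the 4 comparisons, with bars of 1 standard error on each side; filled points have an adjusted p under 0.05 (edgeR). Filled points number 26 in Pax7-positive iMPCs, 11 in MEFs, 4 in ASC and 4 in Pax7-negative iMPCs, and none lies below 0.

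Promoter sequences are shown because genes that are driven together into S phase often carry E2F motifs near their start sites. RefSeq windows of GRCm38.p6, from 250 bases before to 50 bases after the annotated start, were found for 34 of the 41 genes; Mcm4, Gins1, Gins2, Gins4, Prim2, Pole and Rfc2 had no entry. An E2F motif was searched as TTTCCCGC, TTTCGCGC, TTTGCCGC or TTTGGCGC on both strands, and overlapping matches were counted separately. It was found for 14 of 34 genes (41.2%), against 704 of 27025 genes (2.6%) with such a window and 1 of 17 mitosis genes (5.88%). The genes shown span licensing (Mcm6, Mcm5, Cdc6, Orc1), the helicase (Gins3) and the clamp loader (Rfc3), each from 20 bases before its first match to the base before the start, in the direction of transcription, and they were chosen after the matches were seen. Capitals mark E2F matches. Where 12 capitals run together, as in Mcm6 and Mcm5, matches on opposite strands share bases.
Mcm6 (chr1:128359706-128359835, minus strand): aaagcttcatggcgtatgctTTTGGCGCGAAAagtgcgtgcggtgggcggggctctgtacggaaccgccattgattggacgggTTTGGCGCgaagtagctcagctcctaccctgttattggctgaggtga
Mcm5 (chr8:75109336-75109508, plus strand): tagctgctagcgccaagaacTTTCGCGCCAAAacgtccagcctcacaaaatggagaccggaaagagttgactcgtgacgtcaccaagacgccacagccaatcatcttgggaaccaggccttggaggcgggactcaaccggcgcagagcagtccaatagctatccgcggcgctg
Cdc6 (chr11:98907993-98908150, plus strand): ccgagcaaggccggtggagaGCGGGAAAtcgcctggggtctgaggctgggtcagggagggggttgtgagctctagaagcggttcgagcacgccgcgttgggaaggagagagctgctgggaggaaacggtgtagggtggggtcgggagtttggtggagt
Orc1 (chr4:108579407-108579453, plus strand): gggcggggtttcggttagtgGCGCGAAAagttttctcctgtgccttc
Gins3 (chr8:95633498-95633558, plus strand): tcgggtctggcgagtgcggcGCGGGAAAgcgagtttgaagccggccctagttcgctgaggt
Rfc3 (chr5:151651209-151651238, minus strand): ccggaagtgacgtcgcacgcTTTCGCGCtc

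A match is a description of letters and not a site or a cause. Mcm6 had 3 matches in its window, and Mcm3, Mcm5, Mcm7 and Rfc3 had 2 each, some of them after the start. With 1 match each, the other genes were Orc1, Cdc6, Cdt1, Gins3, Pola1, Pold1, Pold3, Pole2 and Lig1. Among the genes with a window, a match was present in 9 of 23 that rose in Pax7-positive iMPCs (39.1%) and in 5 of 11 that did not pass the test (45.5%). Genes with a match included Cdt1 and Pold3, which passed the test in no comparison, and genes without one included Mcm2, Mcm10 and Ung, which rose. The absence of a match says only that these letters are not in the window.

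The letters CCAAT, read on both strands, mark a promoter element of many cell cycle genes. They were found for 21 of 34 replication genes (61.8%), 15 of 17 mitosis genes (88.2%) and 41.1% of all genes. The letters TTTGAA, the core of the cell cycle genes homology region (CHR) of G2 and mitosis promoters, were found for 5 of 34 replication genes (14.7%), 11 of 17 mitosis genes (64.7%) and 20.2% of all genes. TATAAA was found for 3 of 34 replication genes (8.82%), 0 of 17 mitosis genes and 15.7% of all genes. The last 100 bases before the start are shown for Pcna and Ung, the genes with the smallest and the largest log2 difference in Pax7-positive iMPCs, and for the mitotic cyclin Ccnb2 as a contrast. Capitals mark CCAAT or its reverse complement.
Pcna (chr2:132253181-132253280, minus strand): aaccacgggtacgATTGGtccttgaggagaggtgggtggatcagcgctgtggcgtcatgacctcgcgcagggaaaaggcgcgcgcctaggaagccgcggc
Ung (chr5:114130335-114130434, plus strand): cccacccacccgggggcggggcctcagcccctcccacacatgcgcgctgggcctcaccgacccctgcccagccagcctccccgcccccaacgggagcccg
Ccnb2 (chr9:70421555-70421654, minus strand): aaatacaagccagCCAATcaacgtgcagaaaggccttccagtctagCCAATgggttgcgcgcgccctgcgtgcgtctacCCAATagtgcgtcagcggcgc

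**Figure D3:**
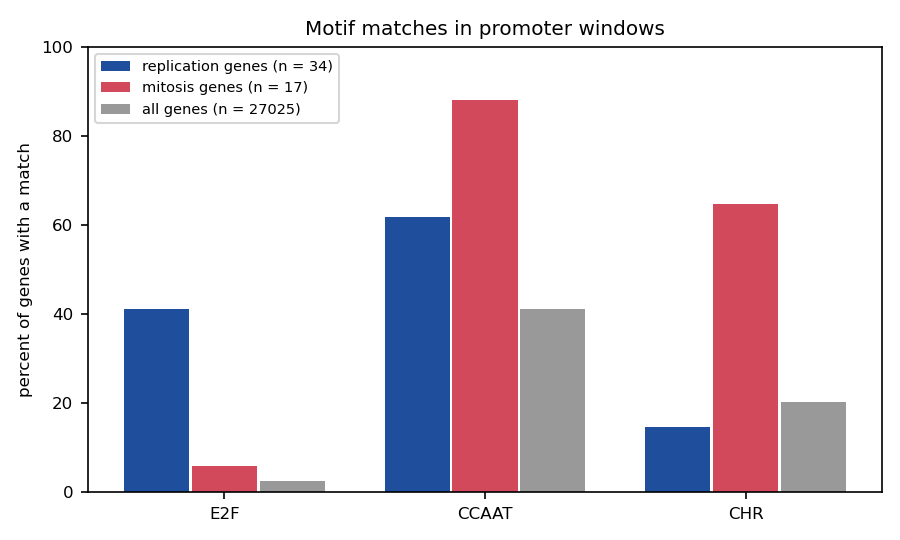
Percent of genes whose promoter window holds a match to the E2F, CCAAT and CHR letters, for 34 replication genes, 17 mitosis genes and 27025 genes in all. Replication genes lie above all genes for E2F (41.2% against 2.6%) and for CCAAT (61.8% against 41.1%). Mitosis genes lie above all genes for CCAAT (88.2%), CHR (64.7% against 20.2%) and, with 1 of 17 genes, E2F (5.88%).

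Of the 10 licensing genes, 7 rose in Pax7-positive iMPCs, 3 in MEFs, 1 in ASC and 1 in Pax7-negative iMPCs. Of all genes tested, 11.3%, 11.3%, 11.8% and 12.1% rose in the same comparisons. The 1 licensing gene in ASC and the 1 in Pax7-negative iMPCs were thus near the share of all genes. Mcm2, a subunit of the MCM2-7 ring that the Cdc7 kinase phosphorylates, was at 25.4, 7.96, 126, 257, 96.7 and 134 CPM. All 4 other libraries lay above both QSC mice, and the Pax7-positive iMPCs lay highest. Its log2 difference from QSC was 3.95 ± 0.67 (SE) in Pax7-positive iMPCs (adjusted p = 0.000682, edgeR), 3.01 ± 0.66 in MEFs (0.00418), 2.92 ± 0.66 in ASC (0.00465) and 2.54 ± 0.66 in Pax7-negative iMPCs (0.0123). Mcm2 was the licensing gene with the largest difference.

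The ring subunits Mcm3, Mcm4 and Mcm5 showed how much the QSC value depended on the mouse. Mcm3 was at 48.4, 5.29, 103, 251, 88.5 and 118 CPM, and its log2 difference in Pax7-positive iMPCs was 3.22 ± 0.82 with both mice (adjusted p = 0.0108), 2.37 and 5.54 against mouse 1 and mouse 3 alone. Mcm5 was at 85.7, 14.3, 81.98, 229, 72.1 and 122 CPM, so that QSC mouse 1 was above the ASC and Pax7-negative iMPC libraries while mouse 3 was below every other library. Its difference in Pax7-positive iMPCs was 2.19 ± 0.75 (adjusted p = 0.0462). Mcm4 was at 59.6, 77.2, 139.6, 257, 95.7 and 161 CPM, with mouse 3 above mouse 1, and its difference in Pax7-positive iMPCs was 1.91 ± 0.57 (adjusted p = 0.0251). The other ring subunits, Mcm6 and Mcm7, rose in Pax7-positive iMPCs by 2.93 ± 0.67 and 2.42 ± 0.67, and of these Mcm6 also rose in MEFs, by 2.02 ± 0.67.

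Cdc6, the ATPase that joins the origin complex to load the ring, was at 10.5, 1.402, 30.2, 62.001, 17.1 and 36.3 CPM. It was lowest in both QSC mice, which themselves differed 7.52-fold (95% counting interval 5.15 to 11.3). It rose in Pax7-positive iMPCs by 3.38 ± 0.83 (adjusted p = 0.00832) and in MEFs by 2.60 ± 0.82 (0.033), while the value in ASC was 2.34 ± 0.82 (0.0524) and in Pax7-negative iMPCs 1.52 ± 0.82 (0.206).

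The 3 licensing genes that passed in no comparison were Orc1, Orc6 and Cdt1. Orc1, the largest subunit of the origin recognition complex, was at 4.05, 2.67, 5.82, 16.8, 6.62 and 14.1 CPM, low throughout but above both QSC mice in every other library. Its log2 difference in Pax7-positive iMPCs was 2.32 ± 0.82 (adjusted p = 0.0531). Orc6, the smallest subunit, was at 54.97, 45.4, 31.2, 69.4, 38.1 and 43.1 CPM, and ASC, Pax7-negative iMPCs and MEFs all lay below both QSC mice. Its differences ran from -0.69 ± 0.62 in ASC to 0.47 ± 0.59 in Pax7-positive iMPCs, and with scaling by library size alone those in Pax7-negative iMPCs and MEFs turned to 0.32 and 0.42. Cdt1, the loader that geminin holds in check, was at 58.1, 21.8, 53.6, 72.9, 27.3 and 24.3 CPM, with ASC, Pax7-negative iMPCs and MEFs lying between the QSC mice. Its difference in Pax7-positive iMPCs was 0.87 ± 0.65 and in MEFs -0.72 ± 0.69.

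Among the 6 genes of helicase activation, 2 rose in Pax7-positive iMPCs and 1 in each of the other 3 comparisons. In a group of 6, 1 called gene is close to the share of all genes that rose (11.3% to 12.1%). Mcm10, which helps to start the unwinding helicase, was at 4.34, 1.36, 23.7, 51.2, 14.96 and 28.1 CPM, and the 4 other libraries lay well above both QSC mice. It rose by 4.17 ± 0.75 in Pax7-positive iMPCs (adjusted p = 0.000986), 3.30 ± 0.73 in MEFs (0.00451), 3.06 ± 0.73 in ASC (0.00672) and 2.39 ± 0.73 in Pax7-negative iMPCs (0.0288). Cdc45, the partner of the ring in the active helicase, rose in Pax7-positive iMPCs by 2.75 ± 0.76 (adjusted p = 0.0161).

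The GINS complex, the other partner of the ring, has 4 subunits, and none passed the test in any comparison. Gins1 was at 5.01, 7.01, 6.29, 15.5, 5.302 and 7.25 CPM, similar everywhere except for the higher Pax7-positive iMPCs, where the log2 difference was 1.37 ± 0.83 (adjusted p = 0.253). Gins2 was at 24.5, 18.4, 41.01, 48.5, 28.8 and 50.6 CPM, with a difference of 1.18 ± 0.61 (0.18). Gins4 was at 23.1, 20.3, 33.1, 53.5, 42.7 and 39.4 CPM, with a difference of 1.30 ± 0.60 (0.135). In these genes the distance between QSC and the other libraries was small beside that of Mcm10. Gins3 was at 1.57, 2.08, 10.5, 9.81, 6.86 and 8.56 CPM, so that all 4 other libraries were above both QSC mice, and its differences were 2.42 ± 0.87 in Pax7-positive iMPCs (0.0582) and 2.52 ± 0.87 in ASC (0.0508). In the GENCODE annotation of GRCm38, exons of Gse1 on the opposite strand overlap 67.3% of the exonic bases of Gins2. Since it is not given whether counting used the strand, it is not known whether the Gins2 counts include reads of Gse1.

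Of the 9 polymerase genes, 4 rose in Pax7-positive iMPCs, 3 in MEFs, 1 in ASC and 1 in Pax7-negative iMPCs. The shares of all genes were 11.3%, 11.3%, 11.8% and 12.1%, so 1 of 9 was near them. Pole, the catalytic subunit of the leading-strand polymerase epsilon, was at 3.58, 1.58, 27.7, 44.01, 13.4 and 26.5 CPM. Both QSC mice were under 4 CPM and every other library was at 13.4 CPM or more. It rose by 4.09 ± 0.72 in Pax7-positive iMPCs (adjusted p = 0.000826), 3.36 ± 0.71 in MEFs (0.00308), 3.43 ± 0.71 in ASC (0.00246) and 2.37 ± 0.70 in Pax7-negative iMPCs (0.0248). Its B subunit Pole2 rose in Pax7-positive iMPCs by 3.06 ± 0.83 and in MEFs by 2.58 ± 0.83. Pold1, the catalytic subunit of the lagging-strand polymerase delta, rose in the same 2 comparisons, by 2.64 ± 0.58 and 2.01 ± 0.58.

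Among the 41 genes, the accessory subunits of polymerase delta are Pold2 and Pold3, and neither passed the test. Pold3 was at 59.8, 38.8, 32.6, 70.7, 28.7 and 35.2 CPM, and ASC, Pax7-negative iMPCs and MEFs lay below both QSC mice, with log2 differences of -0.60 ± 0.64, -0.78 ± 0.64 and -0.49 ± 0.63, of which the first and last turned to 0.0019 and 0.16 with scaling by library size alone. In Pax7-positive iMPCs the value was 0.52 ± 0.61 (adjusted p = 0.574). Pold2 was at 61.1, 53.5, 57.98, 129, 55.1 and 49.4 CPM, close to level in 5 libraries and higher in Pax7-positive iMPCs, where the difference was 1.17 ± 0.58 (0.161).

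Polymerase alpha-primase makes the short primers of both strands, and 1 of its 4 genes passed. Pola2, the regulatory subunit, rose in Pax7-positive iMPCs by 2.63 ± 0.62 (adjusted p = 0.00694). Pola1, the catalytic subunit, was at 23.6, 20.1, 23.6, 50.1, 14.4 and 30.5 CPM, with the Pax7-negative iMPCs below both QSC mice, and its difference in Pax7-positive iMPCs was 1.20 ± 0.62 (0.182). The primase catalytic subunit Prim1 was at 16.7, 8.004, 20.9, 38.996, 16.6 and 26.1 CPM, with a difference of 1.66 ± 0.67 (0.0917). Its partner Prim2 was at 12.5, 7.96, 14.3, 26.6, 14.7 and 24.5 CPM, with a difference of 1.37 ± 0.69 (0.168). For both primase genes QSC mouse 3 was lowest and mouse 1 was near ASC and the Pax7-negative iMPCs.

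Pcna, the sliding clamp that holds polymerases on DNA and a common marker of proliferating cells, was high in QSC. It was at 335, 161, 95.2, 202, 86.1 and 93.2 CPM, so that QSC mouse 1 was the highest of the 6 libraries, mouse 3 was above ASC, Pax7-negative iMPCs and MEFs, and only the Pax7-positive iMPCs reached between the mice. The log2 difference was -0.30 ± 0.64 in Pax7-positive iMPCs (adjusted p = 0.774), -1.41 ± 0.67 in MEFs (0.15), -1.38 ± 0.67 in ASC (0.157) and -1.53 ± 0.68 in Pax7-negative iMPCs (0.126). None passed the test, and with scaling by library size alone the value in Pax7-positive iMPCs turned to 0.39. Processed copies of Pcna exist in the mouse genome, and how reads shared with them were counted is not given, so its level is uncertain to that extent.

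The clamp loader RFC opens the clamp and sets it on primed DNA. Of its 5 genes, 4 rose in Pax7-positive iMPCs, where 11.3% of all genes rose, and none passed in the other comparisons. Rfc5 was at 22.98, 16.3, 51.3, 123, 55.9 and 53.3 CPM and rose in Pax7-positive iMPCs by 2.64 ± 0.58 (adjusted p = 0.00436), the largest difference of the group. Rfc4 was at 21.03, 20.3, 23.6, 61.9, 31.004 and 30.01 CPM, with the QSC mice nearly equal, and its difference of 1.58 ± 0.60 did not pass (0.0729). Rfc1, Rfc2 and Rfc3 rose in Pax7-positive iMPCs by 2.05, 1.99 and 2.56 on the log2 scale. Exons of a gene on the opposite strand overlap 15.1% of the exonic bases of Rfc2 (Lat2), 12.7% of Rfc4 (Eif4a2) and 10.7% of Rfc5 (Wsb2).

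Replication protein A (RPA) coats single-stranded DNA at the fork. Rpa1, its large subunit, was at 55.02, 19.9, 133, 185, 91.1 and 158 CPM and rose in Pax7-positive iMPCs by 2.304 ± 0.64 (adjusted p = 0.0164) and in MEFs by 2.08 ± 0.64 (0.029). Rpa3, the small subunit, was at 9.96, 3.21, 14.1, 30.2, 22.02 and 24.8 CPM and rose in Pax7-positive iMPCs by 2.20 ± 0.74 (0.0438). Rpa2, the subunit that is phosphorylated under replication stress, was at 44.8, 15.8, 50.4, 104, 43.4 and 37.2 CPM, and its difference there was 1.79 ± 0.65 (0.0599). For all 3 subunits QSC mouse 3 was the lowest library, while for Rpa2 mouse 1 was above the Pax7-negative iMPCs and MEFs.

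Okazaki fragments are trimmed by the flap nuclease Fen1 and joined by DNA ligase 1. Fen1 was at 30.8, 6.69, 69.5, 128, 53.3 and 69.2 CPM and rose in Pax7-positive iMPCs by 2.77 ± 0.71 (adjusted p = 0.0111). Lig1 was at 30.6, 8.14, 37.996, 89.4, 33.2 and 41.9 CPM and rose there by 2.21 ± 0.69 (0.0323). Neither passed in the other comparisons, where log2 differences ran from 0.78 for Lig1 in Pax7-negative iMPCs to 1.89 for Fen1 in ASC. An annotated antisense gene, Gm10143, overlaps 78.8% of the exonic bases of Fen1, so it is likewise not known whether the Fen1 counts include reads of it.

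All 4 genes of S-phase nucleotide synthesis rose in Pax7-positive iMPCs, 3 in MEFs, 1 in ASC and 0 in Pax7-negative iMPCs. The shares of all genes were 11.3%, 11.3%, 11.8% and 12.1%. Rrm2, the subunit of ribonucleotide reductase that carries the tyrosyl radical and peaks in S phase, was at 112, 20.3, 535, 558, 133 and 408 CPM. It was highest in ASC and Pax7-positive iMPCs, and in Pax7-negative iMPCs it was close to QSC mouse 1. Its log2 difference was 3.08 ± 0.75 in Pax7-positive iMPCs (adjusted p = 0.00833), 3.02 ± 0.75 in ASC (0.00888), 2.63 ± 0.75 in MEFs (0.0202) and 1.02 ± 0.75 in Pax7-negative iMPCs (0.366). Rrm1, the large subunit, was at 130.5, 55.8, 318, 382, 134 and 254 CPM and rose in Pax7-positive iMPCs by 2.04 ± 0.62 (0.0279).

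Thymidylate synthase Tyms, which makes thymidine monophosphate, was at 27.4, 12.1, 50.8, 105, 57.8 and 71.98 CPM and rose in Pax7-positive iMPCs by 2.41 ± 0.62 (adjusted p = 0.0108) and in MEFs by 1.87 ± 0.62 (0.0421). The cytosolic thymidine kinase Tk1 was at 13.2, 12.5, 38.7, 74.999, 38.2 and 61.6 CPM, with the QSC mice nearly equal. It rose in Pax7-positive iMPCs by 2.55 ± 0.59 (0.00596) and in MEFs by 2.26 ± 0.59 (0.0124). Values for Tk1 against mouse 1 and mouse 3 alone were 2.50 and 2.58 in Pax7-positive iMPCs.

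Ung, the glycosylase that removes uracil from DNA, had the largest difference of the 41 genes in Pax7-positive iMPCs and the lowest level per length in both QSC mice, at 0.359 and 0.121 RPKM, the read count per kilobase of gene and per library total. It was at 0.858, 0.271, 2.76, 28.2, 8.85 and 3.29 CPM, so that both iMPC fractions were above ASC and MEFs, which in turn were above QSC. It rose in Pax7-positive iMPCs by 5.63 ± 0.97 (adjusted p = 0.000747) and in Pax7-negative iMPCs by 3.96 ± 0.94 (0.00704). In ASC the difference was 2.28 ± 0.93 (0.0933) and in MEFs 2.54 ± 0.93 (0.0641), which did not pass. The QSC values rest on 18 counts in mouse 1 and 6 in mouse 3. Between libraries, Ung was 10.2-fold higher in Pax7-positive iMPCs than in ASC (counting interval 7.93 to 13.4) and 8.57-fold higher than in MEFs (6.88 to 10.8).

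The 4 groups with 1 library each were compared library by library, without a test, by counting genes at least 2-fold apart with at least 5 CPM in the higher library. Pax7-positive iMPCs were above Pax7-negative iMPCs in 41 of 41 replication genes, with a median log2 difference of 1.26, where 7737 of 17116 genes tested were above. By the rule of size, 29 of 41 were at least 2-fold higher and 0 lower, against 3.25% and 8.66% of all genes. The ratios ran from 1.25 for Gins4 (95% counting interval 1.17 to 1.35) to 4.19 for Rrm2 (4.04 to 4.33). Markers of other cells differed between these fractions too: summed fibroblast markers were 2002 CPM in the Pax7-positive and 8007 in the Pax7-negative fraction, with 9 of 9 at least 2-fold lower in the former, and summed markers of differentiating muscle were 2726 and 6142 CPM, with 7 of 10 lower. Of 8 pericyte and smooth muscle markers 5 were lower and 1 higher, and of 9 satellite cell markers 2 were higher. No fibroblast or differentiating muscle marker was at 0 in these libraries, and the part of these markers in the replication gene difference was not tested.

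Against ASC, 25 of 41 genes were at least 2-fold higher in Pax7-positive iMPCs, against 6.42% of all genes, with a median of 1.05. Rrm2 was nearly level there, with a ratio of 1.04 (counting interval 1.02 to 1.07), as was Gins3, with 0.937 (0.789 to 1.11). Summed markers of differentiating muscle were 22520 CPM in ASC, with 10 of 10 at least 2-fold higher than in Pax7-positive iMPCs. Fibroblast markers went the other way, with sums of 633.3 CPM in ASC and 2002 in Pax7-positive iMPCs and 6 of 9 at least 2-fold higher in the latter. The part of these markers was not tested. Against MEFs, 15 of 41 genes were at least 2-fold higher in Pax7-positive iMPCs, where 8.47% of all genes were, with a median of 0.77. These included Rpa2 with a ratio of 2.80 (2.61 to 3.01), Cdt1 with 3.00 (2.75 to 3.28), Mcm7 with 2.74 (2.63 to 2.85) and Ung. In this pair 8 of 9 fibroblast markers were at least 2-fold lower in Pax7-positive iMPCs, with sums of 2002 and 15650 CPM, while 7 of 10 differentiating muscle markers (2726 and 488.3 CPM) and 5 of 9 satellite cell markers (4798 and 417.4 CPM) were higher. Their part was not tested.

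The other 3 libraries lay closer to each other. ASC and MEFs had 1 gene at least 2-fold higher in ASC, Cdt1, against 8.42% of all genes, and 1 lower, Orc1, against 8.77%. Pax7-negative iMPCs had 1 gene at least 2-fold above ASC, Ung, against 8.49% of all genes, and 3 below it, against 8.11%. Those 3 were Pole with a ratio of 0.482 (0.424 to 0.547), Rrm1 with 0.421 (0.405 to 0.438) and Rrm2 with 0.249 (0.240 to 0.258). Against MEFs, Pax7-negative iMPCs had Ung higher, where 8.53% of all genes were, and Orc1, Cdc6, Pola1 and Rrm2 lower, where 7.37% were. The 41 genes' shares past the rule in these 3 pairs were near or below those of all genes. Smaller differences leaned one way. Pax7-negative iMPCs were above MEFs in 9 of 41 genes (median log2 difference -0.41), where 8618 of 17116 genes tested were above. ASC was above MEFs in 11 of 41 (-0.235), against 8231 of all genes. Pax7-negative iMPCs were above ASC in 15 of 41 (-0.196), against 8391.

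The QSC mice differed in replication genes. Mouse 1 was above mouse 3 in 37 of 41, with a median log2 difference of 1.06. Of all genes tested, 8259 of 17116 were above, with a median of 0. By the rule of size, 18 of the 41 were at least 2-fold higher in mouse 1 while 0 were lower, against 7.24% and 6.3% of all genes tested. The largest differences were in Mcm3, with 1016 and 117 counts and a ratio of 9.16 (95% counting interval 7.56 to 11.2), Cdc6 and Mcm5, with a ratio of 5.999 (5.32 to 6.78). The genes that were lower in mouse 1 were Gins1, with a ratio of 0.714 (0.552 to 0.921), Gins3 with 0.756 (0.469 to 1.21), Mcm4 with 0.771 (0.717 to 0.830) and Rfc1 with 0.803 (0.704 to 0.915). The interval of Gins3 included equal levels.

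By role, all 3 RPA genes, both Okazaki fragment genes, 7 of 10 licensing genes and 3 of 4 nucleotide synthesis genes passed this rule, with 1 of 6 helicase activation genes (Cdc45), 1 of 9 polymerase genes (Prim1) and 1 of 6 clamp and loader genes (Pcna). Mcm10, Pole, Pole2 and Ung were also more than 2-fold apart but under 5 CPM in both mice. Among 20 mitosis genes, 18 passed the same rule, with a median log2 difference of 3.86. Some cell markers also differed between the mice. At least 2-fold higher in mouse 1 were 9 of 11 endothelial, 3 of 5 tested erythroid and 7 of 10 differentiating muscle markers. So were 3 of 9 fibroblast markers, whose median was -0.169, and 1 of 11 immune markers, against 7.24% of all genes. Of 9 satellite cell markers 2 were higher and 1 lower (median -0.512), and of 5 tested Schwann cell markers 0 were higher or lower. Of 8 pericyte and smooth muscle markers, 2 were at least 2-fold lower. Summed immune markers were 267.7 and 149.7 CPM and summed differentiating muscle markers 3144 and 2211 CPM. Of 9 erythroid markers, 3 were at 0 in mouse 3 and 1 in mouse 1. The part of these markers in the difference between the mice was not tested.

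**Figure D4:**
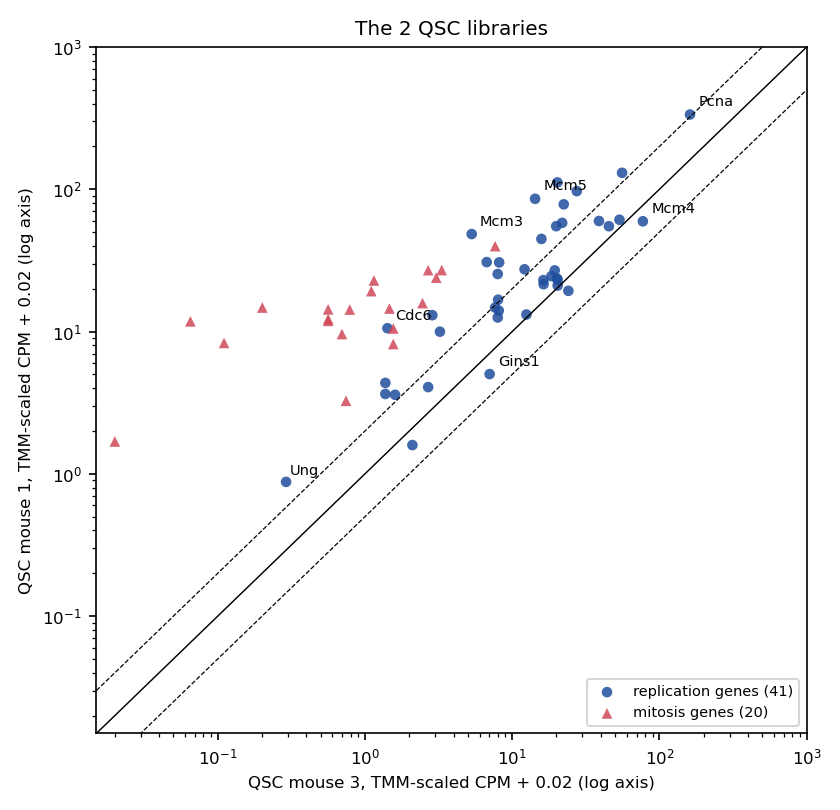
Level of 41 replication genes and 20 mitosis genes in QSC mouse 1 against QSC mouse 3, in TMM-scaled CPM plus 0.02 on log axes; the solid line marks equal levels and the dashed lines a 2-fold difference. Of the replication genes, 37 lie above the solid line, where 8259 of all 17116 genes tested were higher in mouse 1. All 20 mitosis genes lie above the line. Their median log2 difference was 3.86, against 1.06 for the replication genes, and the ranges of the lists overlap.

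The rule of size against QSC shows how far this difference reaches. In Pax7-positive iMPCs, 27 of 41 genes were at least 4-fold higher with at least 5 CPM against the mean of the QSC mice (9.78% of all genes), 20 against mouse 1 alone (9.44%) and 28 against mouse 3 alone (10.6%). In MEFs the numbers were 16 (10.8%), 6 (10.4%) and 22 (11.5%). In ASC they were 11 (11.1%), 5 (11%) and 19 (11.8%), and in Pax7-negative iMPCs 6 (11%), 2 (10.6%) and 18 (12%). Only in the Pax7-positive iMPCs did the count stay within 1.5 times when either mouse was left out.

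Levels of different subunits were compared per length, as the deposited RPKM. The median RPKM of the 41 genes was 10.0 in QSC mouse 1, 4.60 in QSC mouse 3, 23.6 in ASC, 49.7 in Pax7-positive iMPCs, 28.0 in Pax7-negative iMPCs and 29.3 in MEFs. The 6 subunits of the MCM2-7 ring, which enter it in equal number, lay within 1.96-fold to 2.49-fold of each other in the 4 libraries outside QSC, with Mcm6 highest and Mcm5 lowest in each. In QSC they were spread 5.10-fold in mouse 1, from Mcm2 at 5.39 RPKM to Mcm7 at 27.5, and 12.2-fold in mouse 3, from Mcm3 at 1.35 RPKM to Mcm4 at 16.4. Mcm4 made up 44.5% of the ring's summed RPKM in mouse 3 and 12.7% to 16.1% in the other 5 libraries.

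In QSC, polymerase epsilon showed the widest spread of the complexes compared. Its catalytic subunit Pole was at 0.465 and 0.219 RPKM in the QSC mice, while Pole4, a small histone-fold subunit that is not among the 41 genes, was at 203.6 and 166.4 RPKM. The ratio of Pole4 to Pole was thus 437.6 and 759, whereas the highest and lowest of the 4 subunits were 7.43-fold to 17.6-fold apart in the other libraries. Pole4 fell against QSC in each comparison, with log2 differences of -2.34 ± 0.67 in Pax7-positive iMPCs (adjusted p = 0.0201, edgeR), -2.43 ± 0.68 in MEFs (0.0177), -2.60 ± 0.68 in ASC (0.0121) and -2.55 ± 0.68 in Pax7-negative iMPCs (0.0146).

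In polymerase delta the small subunit Pold4 took 68.1% and 89.3% of the summed RPKM of the 4 subunits in QSC and 8.995% to 28.1% in the other libraries, where Pold2 was highest. Pold4 was at 129, 399, 22.7, 12.9, 18.3 and 12.1 CPM and fell too, with log2 differences of -4.36 ± 0.86 in Pax7-positive iMPCs (adjusted p = 0.00207), -4.44 ± 0.87 in MEFs (0.00181), -3.54 ± 0.82 in ASC (0.00561) and -3.85 ± 0.84 in Pax7-negative iMPCs (0.00414). GINS was uneven in every library, with Gins3 lowest, 6.31-fold to 25.99-fold below the highest subunit. RPA and RFC subunits stayed within 1.63-fold to 3.92-fold of each other in all 6 libraries.

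**Figure D5:**
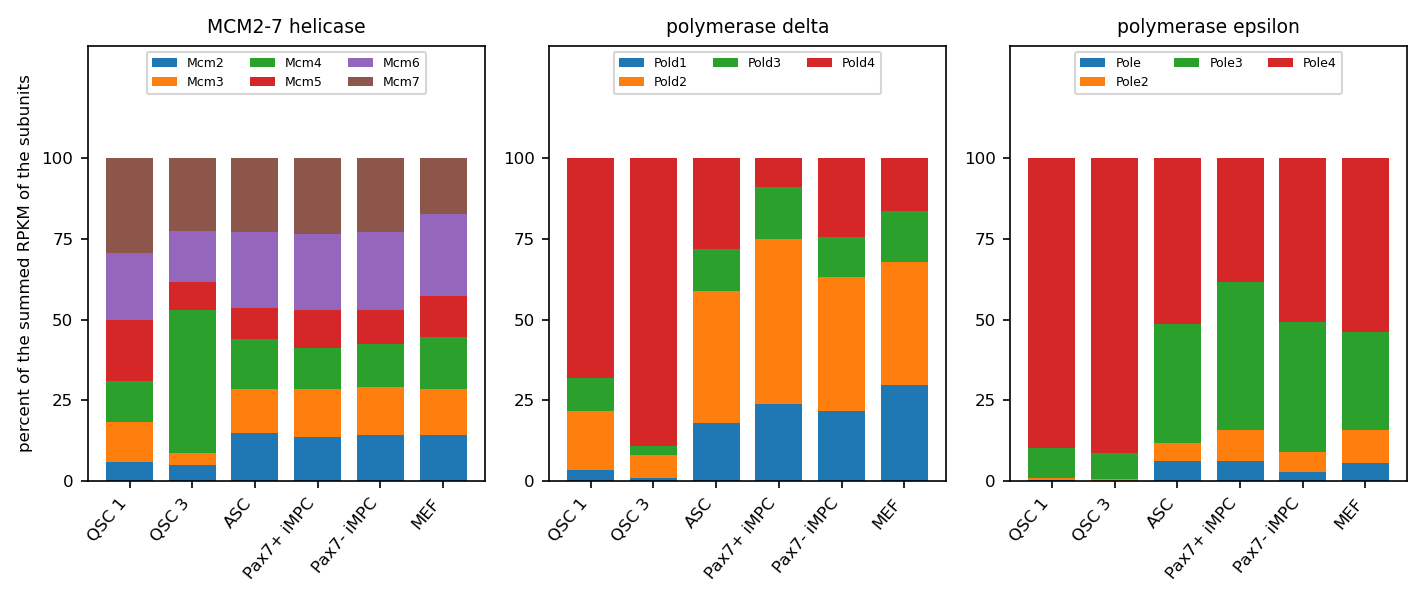
Share of each subunit in the summed RPKM of its complex, in percent, for the MCM2-7 ring, polymerase delta and polymerase epsilon in the 6 libraries; each bar is 1 library. Pold4 takes 68.1% and 89.3% of polymerase delta and Pole4 89.9% and 91.2% of polymerase epsilon in the QSC libraries, more than in any other library.

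Ribonucleotide reductase has an S-phase small subunit, Rrm2, and a p53-inducible one, Rrm2b, which supplies nucleotides outside S phase. In QSC mouse 3, Rrm2 was at 7.31 RPKM and Rrm2b at 4.26, so that Rrm2b made up 19.2% of the summed RPKM of the enzyme's genes. In mouse 1 the same levels were 37.9 and 1.63 RPKM, and Rrm2b made up 2.58%. In the 4 other libraries Rrm2b made up 0.552% to 2.86%. Rrm2b itself was at 7.34, 18.1, 11.1, 6.47, 9.22 and 10.2 CPM.

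Of 6 genes of nucleotide supply outside S phase, 1 rose in Pax7-positive iMPCs and 0 fell, against 11.3% and 9.31% of all genes. Their median log2 difference was -0.19. That gene was Dck, the deoxycytidine kinase of nucleoside salvage, at 13.02, 8.28, 62.1, 87.6, 35.9 and 44.8 CPM, which rose by 3.04 ± 0.61 in Pax7-positive iMPCs (adjusted p = 0.00218), 2.07 ± 0.60 in MEFs (0.0224) and 2.54 ± 0.60 in ASC (0.0064). The mitochondrial kinase Tk2 was at 7.72, 10.3, 14.7, 16.99, 18.7 and 14.8 CPM. Its deoxyguanosine counterpart Dguok was at 12.6, 25.3, 8.96, 14.5, 19.3 and 19.2 CPM. The triphosphohydrolase Samhd1, which breaks down nucleotides, was at 17.9, 13.7, 15.5, 15.96, 13.2 and 43.4 CPM. Uridine phosphorylase Upp1 was at 38.8, 17.8, 6.68, 20.6, 25.1 and 1.35 CPM and fell in MEFs with a log2 difference of -4.39 ± 0.93 (0.00333). Rrm2b, Samhd1, Tk2 and Dguok passed the test in no comparison.

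Related lists give the pathway around the 41 genes. For these lists, the share of all genes called higher was 11.3% in Pax7-positive iMPCs and MEFs, 11.8% in ASC and 12.1% in Pax7-negative iMPCs. The share called lower was 9.31% in Pax7-positive iMPCs, 8.03% in MEFs, 8.24% in ASC and 6.57% in Pax7-negative iMPCs. Of 15 other origin and firing factors, 9 rose and 0 fell in Pax7-positive iMPCs, 5 rose in MEFs, 4 in ASC and 4 in Pax7-negative iMPCs. Ticrr, which brings firing factors to the licensed ring, was at 0.191, 0.181, 9.74, 21.8, 4.29 and 12.2 CPM and rose in Pax7-positive iMPCs by 6.84 ± 0.97 (adjusted p = 0.000159). Orc4, a core origin complex subunit, was at 77.6, 94.4, 76.2, 81.3, 65.7 and 85.1 CPM, almost level across the libraries, with a difference of -0.08 ± 0.60. Of 17 other fork factors, 5 rose and 3 fell in Pax7-positive iMPCs. Dna2, a nuclease and helicase of long flaps, was at 0.668, 0, 9.31, 26.3, 10.5 and 6.91 CPM, with 14 counts in QSC mouse 1 and 0 in mouse 3, and its fitted log2 difference was 6.29 ± 1.17 (0.00128).

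The fork factors that fell were Pold4, Pole4 and Top1, the topoisomerase that relieves torsion ahead of the fork and during transcription. Top1 was at 980.1, 728, 113, 118, 113 and 67.9 CPM and fell in Pax7-positive iMPCs with a log2 difference of -2.86 ± 0.72 (adjusted p = 0.0102). The same 3 genes fell in MEFs, ASC and Pax7-negative iMPCs, where 4, 3 and 3 fork factors rose.

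Of 7 genes of replication-coupled chromatin assembly and methylation, 6 rose in Pax7-positive iMPCs, 4 in MEFs, 4 in ASC and 2 in Pax7-negative iMPCs, and 0 fell. Uhrf1, which recruits the maintenance methyltransferase Dnmt1 to new DNA, was at 20.3, 0.226, 104, 249.6, 83.2 and 129.7 CPM and rose in Pax7-positive iMPCs by 4.60 ± 1.16 (adjusted p = 0.00996). The histone chaperone Asf1a was at 60.5, 32.3, 41.01, 47.4, 36.2 and 32.4 CPM, with a difference of 0.03 ± 0.64. Of 10 other nucleotide metabolism genes, 4 rose in Pax7-positive iMPCs, 2 in Pax7-negative iMPCs, 1 in MEFs and 1 in ASC. Cad, which starts pyrimidine synthesis, was at 14.1, 20.8, 103, 155, 75.4 and 103 CPM and rose in Pax7-positive iMPCs by 3.15 ± 0.59 (0.00133). Impdh2, of guanine nucleotide synthesis, was at 252, 179, 108, 188, 139.7 and 102 CPM, with a difference of -0.19 ± 0.60.

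Of 11 DNA polymerases outside the replication fork, 3 rose in Pax7-positive iMPCs, 3 in MEFs, 2 in ASC and 3 in Pax7-negative iMPCs. Beside these, 26, 11, 4 and 4 of the 41 replication genes rose, so only in Pax7-positive iMPCs was the replication genes' share the larger by a wide margin. Polq, the polymerase of theta-mediated end joining, was at 0.954, 0, 2.89, 5.502, 3.04 and 7.59 CPM, with a fitted difference of 3.52 ± 1.34 in Pax7-positive iMPCs (adjusted p = 0.072). Polb, of base excision repair, was at 26.1, 70.1, 29.6, 19.6, 24.1 and 30.3 CPM, with a difference of -1.29 ± 0.73. Of 13 E2F family members and partners, 5 rose and 1 fell in Pax7-positive iMPCs, 2 rose in MEFs, 4 in Pax7-negative iMPCs, and in ASC 6 rose and 1 fell. E2f8, a repressor expressed in cycling cells, was at 2.098, 0.0904, 55.9, 56.7, 55.1 and 26.1 CPM and rose in Pax7-positive iMPCs by 5.70 ± 0.96 (0.000617). E2f5, a repressor that works with pocket proteins, was at 48.9, 64.5, 8.06, 12.6, 18.3 and 16.7 CPM and fell there with a log2 difference of -2.17 ± 0.72 (0.0401).

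Of 20 mitosis genes, 20 rose in Pax7-positive iMPCs, 16 in MEFs, 14 in ASC and 14 in Pax7-negative iMPCs, with median log2 differences of 4.02, 3.42, 3.16 and 2.72. The replication genes' medians in the same comparisons were 2.304, 1.46, 1.16 and 1.13. Plk1, a kinase that drives mitotic entry and exit, was at 3.24, 0.724, 78.9, 169, 73.4 and 109 CPM and rose in Pax7-positive iMPCs by 6.41 ± 0.78 (adjusted p = 5.82e-05). Cenpe, a kinetochore motor, was at 14.3, 0.543, 37.3, 63.7, 28.3 and 74.3 CPM and rose by 3.10 ± 0.99 (0.0339). Against mouse 1 alone the mitosis medians were 3.07, 2.55, 2.25 and 1.81, and those of the replication genes 1.94, 1.21, 0.89 and 0.70. Against mouse 3 alone they were 6.86, 6.38, 5.90 and 5.71 for mitosis and 2.85, 2.15, 1.70 and 1.78 for replication. The mitosis values against mouse 3 rest on low levels. Their median level there was 0.927 CPM, with 1 gene at 0, against 14.3 CPM for the replication genes. The difference between the lists was not tested.

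Markers of other cells also moved with the comparisons against QSC. Of 9 satellite cell markers, 4 fell in Pax7-positive iMPCs, 9 in MEFs, 3 in ASC and 5 in Pax7-negative iMPCs, and their summed levels ran from 8414 and 8508 CPM in the QSC mice to 5116 in ASC, 4798 in Pax7-positive iMPCs, 2934 in Pax7-negative iMPCs and 417.4 in MEFs. Of 11 endothelial markers, 7, 7, 7 and 2 fell in Pax7-positive iMPCs, MEFs, ASC and Pax7-negative iMPCs, and 0 rose. Of 11 immune markers, 5, 2, 5 and 4 fell in the same order while 1, 0, 1 and 1 rose, and of 5 tested erythroid markers 3, 2, 3 and 2 fell while 2, 0, 2 and 1 rose. Fibroblast markers rose in 3, 8, 0 and 7 of 9 cases and fell in 2, 1, 3 and 0, and differentiating muscle markers rose in 4, 0, 9 and 8 of 10 and fell in 1, 7, 0 and 0. For pericyte and smooth muscle markers 2, 3, 3 and 3 of 8 rose and 1, 1, 2 and 1 fell, and for 5 tested Schwann cell markers 1, 0, 1 and 2 rose and 1 fell in each. The part of these cells in the replication gene differences was not tested.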

How the data were processed

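RNA of 6 mouse libraries was sequenced after poly(A) selection with a directional kit, per the labels' protocols. The deposited tables hold whole-number counts per gene and RPKM. The submitters' processing notes name the mm9 build, Picard 1.100, HTSeq 0.6.0, STAR 2.3.0 and edgeR; roles, annotation and strand setting were not given in the sources used here. The RPKM deposited by the authors equal counts per kilobase and per library total, without TMM.

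All libraries entered 1 edgeR 4.0.16 fit (R 4.3.3, limma 3.58.1) with a coefficient per group: filterByExpr left 17116 of 38924 genes, with TMM scaling. Tests were two-sided quasi-likelihood F tests, with p-values adjusted over all genes tested by Benjamini-Hochberg (threshold 0.05). The fit had 1 residual and 16.3 prior degrees of freedom and a biological coefficient of variation of 0.476. Standard errors were derived from the log2 difference and its F statistic. Comparisons by size used log2 CPM with a prior count of 2, at least 5 CPM in the higher group, and 4-fold against QSC or 2-fold between single libraries. Counting intervals are exact 95% binomial intervals and, like shares of counts, cover counting error only.

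The genes and the 16 other lists (213 of 214 entries matched by symbol, Ahsp not) were chosen with earlier results of these data known. Genes given in full had the largest or smallest difference of their role group in Pax7-positive iMPCs, belonged to a group of 4 or fewer, were called in no comparison, or were among the 3 largest or smallest differences between the QSC mice. From each other list, markers aside, the largest and smallest differences are given, and all genes of nucleotide supply outside S phase. Promoters are RefSeq windows of GRCm38.p6, used for sequence only, since the counts rest on mm9.

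Alternatives were library size scaling, DESeq2-style size factors, DESeq2 1.42.0, other filters, fewer libraries, and either QSC mouse alone. Scripts were tested on simulated data. Figures used Python 3.11.15, pandas 2.3.3 and matplotlib 3.10.9. No column of per-sample values was left unused.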

Additional observations from a re-analysis of the deposited data

How the results depend on the processing

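Replication genes called higher in Pax7-positive iMPCs numbered 22 to 29 under the alternatives for scaling, test, filter and libraries fitted, and none was called lower in any comparison. The 22 came with library size scaling, where 1998 of 17116 genes were called higher. The 29 came without a low-count filter, where 2305 of 23555 were. Without a low-count filter, 13 were called in ASC, where 2451 of 23555 genes were, so that the count no longer lay near the share of all genes. In Pax7-negative iMPCs 9 were called with library size scaling (2141 of 17116 genes) and 2 with only QSC and that library in the fit (1778 of 16463). In MEFs 7 were called with DESeq2-style size factors (1720 of 17116 genes) and 7 with a filter of 5 CPM (1548 of 12671). The median log2 difference with library size scaling was 1.76 in ASC and 3.00 in Pax7-positive iMPCs, and in MEFs it was 1.21 to 2.15 without either QSC mouse. Genes at least 4-fold higher without either mouse numbered 5 to 19 in ASC (11% to 11.8% of all genes), 2 to 18 in Pax7-negative iMPCs (10.6% to 12%) and 6 to 22 in MEFs (10.4% to 11.5%). With library size scaling they numbered 18 in ASC and 21 in Pax7-negative iMPCs. From RPKM, which lack TMM, they numbered 18, 21 and 25 in ASC, Pax7-negative iMPCs and MEFs. The share of all genes was not counted for library size scaling or RPKM. With library size scaling the median of all genes rose too, to 0.589 in ASC and 0.86 in Pax7-negative iMPCs. At 4-fold in place of 2-fold, Pax7-positive iMPCs had 1 gene above Pax7-negative iMPCs, 1 above ASC and 1 above MEFs. By that rule Pax7-negative iMPCs had 0 above and 0 below MEFs and 0 above and 1 below ASC, ASC had 0 above and 0 below MEFs, and QSC mouse 1 had 6 above mouse 3. Genes lower in ASC than in MEFs numbered 2 with library size scaling and 2 with DESeq2-style size factors. Shares of all genes were not counted for the 4-fold rule between single libraries or for these scalings. The cause of these shifts was not tested.

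Signs reversed for values that passed no test. In ASC, Pold3 turned to 0.0019 with library size scaling. Gins1 turned to -0.043 with DESeq2-style size factors, -0.023 with DESeq2 and -0.073 with the 5 CPM filter. Pold2 turned to -0.0897, -0.069 and -0.12 under the same settings and to -0.043 with only QSC and ASC, and Pola1 to -0.022 with the 5 CPM filter. Library size scaling gave 0.39 for Pcna in Pax7-positive iMPCs. In Pax7-negative iMPCs it gave 0.32 for Orc6, 0.18 for Cdt1, 0.52 for Gins1, 0.12 for Pola1 and 0.66 for Pold2, and in MEFs 0.42 for Orc6, 0.42 for Pold2 and 0.16 for Pold3. Without QSC mouse 1 the sign differed in 5 of 164 values, and without mouse 3 in 8, of which 0 had been called.

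No paired analysis was possible because every group but QSC had a lone library. Leaving out a QSC mouse leaves no residual degree of freedom, so counts of called genes have no value there. Only the pair of QSC mice, which differed in sex-linked genes, gives a spread, and low levels in QSC, such as that of Ung, rest on few counts.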
